A study of Homo sapiens with 12 samples.

Results

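The 40 genes described here are MYC and 39 genes of ribosome biogenesis, the assembly line that builds ribosomes in the nucleolus. They were picked as a named list of symbols covering RNA polymerase I, the small nucleolar ribonucleoproteins (snoRNPs) and the assembly factors of both ribosomal subunits. Each symbol matched 1 of the 58735 gene identifiers of the count table, and all 40 passed the filter on low counts that left 15060 genes for testing. The cells were OCI-AML2, an established human line of acute myeloid leukemia with a rearranged KMT2A gene, and their RNA was sequenced to compare cells labelled UTX knockout with cells labelled wild type, with and without an inhibitor. UTX is the histone demethylase encoded by KDM6A, and SGC0946 inhibits the histone methyltransferase DOT1L, on which leukemias of this kind depend.

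There were 6 groups of 2 libraries, 12 in all, each named by the guide RNA that the cells received by lentivirus and by the treatment. Cells with guide sgUTX_2 or sgUTX_4, both directed at KDM6A, and cells with the control guide sgLuc were kept for 6 days in 1 µM SGC0946. Cells with the same 3 guides were kept for 6 days in DMSO, the solvent. The 4 libraries of both sgUTX guides formed the sgUTX arm of each treatment, and the 2 sgLuc libraries its control arm. The labels give neither whether the cells were clones or pools nor whether both libraries of a group had their own culture. The p-values therefore reflect the spread of the sequenced libraries alone, part or all of which may be technical. Libraries held 15480493 to 23262141 counts.

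MYC is a transcription factor that binds DNA together with MAX and drives cell growth, and ribosome biogenesis genes are among its best known targets. In the nucleolus RNA polymerase I transcribes the ribosomal RNA precursor, snoRNPs guide its chemical modification, and assembly factors fold and cut it into the small and the large subunit. Rapidly growing leukemia cells need a high output of ribosomes, and both MYC and the nucleolar protein NPM1 are known for their roles in acute myeloid leukemia.

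MYC and MAX bind best to the E-box CACGTG, which reads the same on both strands, so promoter sequences are shown for members that hold it within the window from 250 bases before to 50 bases after the annotated start. Of the 40 members, 32 had a promoter in the RefSeq table (GRCh38.p14). BOP1, MYC, NOLC1, NOP58, POLR1E, RRP12, RRP1B and RRS1 were not in it. The E-box was found in 11 of these 32 promoters (34.4%) and in 2548 of all 35116 promoters of the table (7.3%). It was in 8 of 24 members called higher (33.3%) and in 1 of 3 called lower (33.3%) in sgUTX DMSO libraries. The core of the motif bound by ETS factors, CCGGAAG on either strand, was likewise more frequent among the members, in 8 of 32 promoters (25%), against 3603 of all 35116 (10.3%). The E-boxes of the 11 members began between 15 bases before and 35 bases after the start. That range, set by these members themselves, held 474 of the 2821 E-boxes in all promoters of the table (16.8%). These matches describe the letters in the window and do not show binding. The 30 bases around each E-box are given 5′ to 3′ on the gene's strand with the E-box in capitals.
FBL, chr19:39846362-39846391, minus strand: cgcgcctgcgctcttttcCACGTGcgaaag
WDR43, chr2:28894652-28894681, plus strand: cgcctgcgcacggacgaaCACGTGgctgca
UTP20, chr12:101280077-101280106, plus strand: gccgttcttttttccgtcCACGTGacccac
NOP14, chr4:2963380-2963409, minus strand: agcggttccgcggcccggCACGTGtcttag
RRP9, chr3:51941898-51941927, minus strand: ctgggagggttcagctgcCACGTGagttct
NAT10, chr11:34105596-34105625, plus strand: gactttaatgcgcttgcgCACGTGctgtct
BYSL, chr6:41921509-41921538, plus strand: tggcctttcttcagtcccCACGTGcgatcc
PNO1, chr2:68157879-68157908, plus strand: ctgcgtggtgcagctgcgCACGTGtttcag
NOP2, chr12:6568245-6568274, minus strand: aaagctaggtccggattgCACGTGgagggc
PES1, chr22:30591886-30591915, minus strand: tcggggtccttggcagggCACGTGcgggag
GNL2, chr1:37595923-37595952, minus strand: agtgacgtacgtcgtgcaCACGTGgtccgg

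The whole 300-base windows of UTP20 and NPM1 are given because these are the members with the highest and the lowest log2 fold change in the first comparison below. The E-box is again in capitals, and NPM1 holds none in this window.
UTP20, chr12:101279855-101280154, plus strand: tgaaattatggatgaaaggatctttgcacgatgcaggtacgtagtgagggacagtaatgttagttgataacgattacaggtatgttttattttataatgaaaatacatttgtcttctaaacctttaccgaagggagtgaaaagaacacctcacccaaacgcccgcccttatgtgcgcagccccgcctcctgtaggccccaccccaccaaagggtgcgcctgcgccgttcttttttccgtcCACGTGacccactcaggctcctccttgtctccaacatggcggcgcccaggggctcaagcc
NPM1, chr5:171387599-171387898, plus strand: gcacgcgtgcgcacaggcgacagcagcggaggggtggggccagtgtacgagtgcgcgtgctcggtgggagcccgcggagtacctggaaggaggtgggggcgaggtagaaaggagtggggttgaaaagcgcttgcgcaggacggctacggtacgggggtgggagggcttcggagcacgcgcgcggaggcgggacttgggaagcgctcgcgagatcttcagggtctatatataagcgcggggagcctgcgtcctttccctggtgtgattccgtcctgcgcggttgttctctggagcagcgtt

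The transcript of KDM6A did not follow the label with both guides. It stood at 14.4 to 15.9 CPM, the share of a library's counts scaled by its TMM (trimmed mean of M values) factor, in the 4 sgUTX_2 libraries and at 43.2 to 49.4 CPM in the 4 sgUTX_4 libraries, against 27.9 to 35.1 CPM in the 4 sgLuc libraries, so levels of this transcript cannot show whether UTX was lost. Control DMSO libraries stood apart in their ribosomal protein transcripts, which took 11% to 12.2% of counts in the 8 sgUTX libraries, 13.0% and 13.2% in the control SGC0946 libraries, and 17.7% and 18.9% in the control DMSO libraries. Markers of monocytes and macrophages, 15 genes such as CD14, LYZ and ITGAM, summed to 5050 to 8560 CPM in sgUTX SGC0946 libraries, 21900 and 21100 CPM in control SGC0946 libraries, 1230 to 2880 CPM in sgUTX DMSO libraries and 2120 and 1910 CPM in control DMSO libraries. Among them CD163 and MRC1 were at 0 in 5 and 4 libraries. General blood cell and myeloid markers, PTPRC and SPI1 among them, summed to 2070 to 2680 CPM across the 12 libraries. This sum hid opposite moves, as 5 of the 8 were called higher and 3 lower with SGC0946 in control cells. There MPO had 386 and 334 CPM, against 72.9 and 53.5 CPM in DMSO, and MYB 187 and 169 CPM, against 474 and 419 CPM. Of all genes 24.7% were called higher and 24.2% lower. The lymphoid and erythroid markers MS4A1, HBB and HBA1 were at 0 in all 12 libraries.

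**Figure D1:**
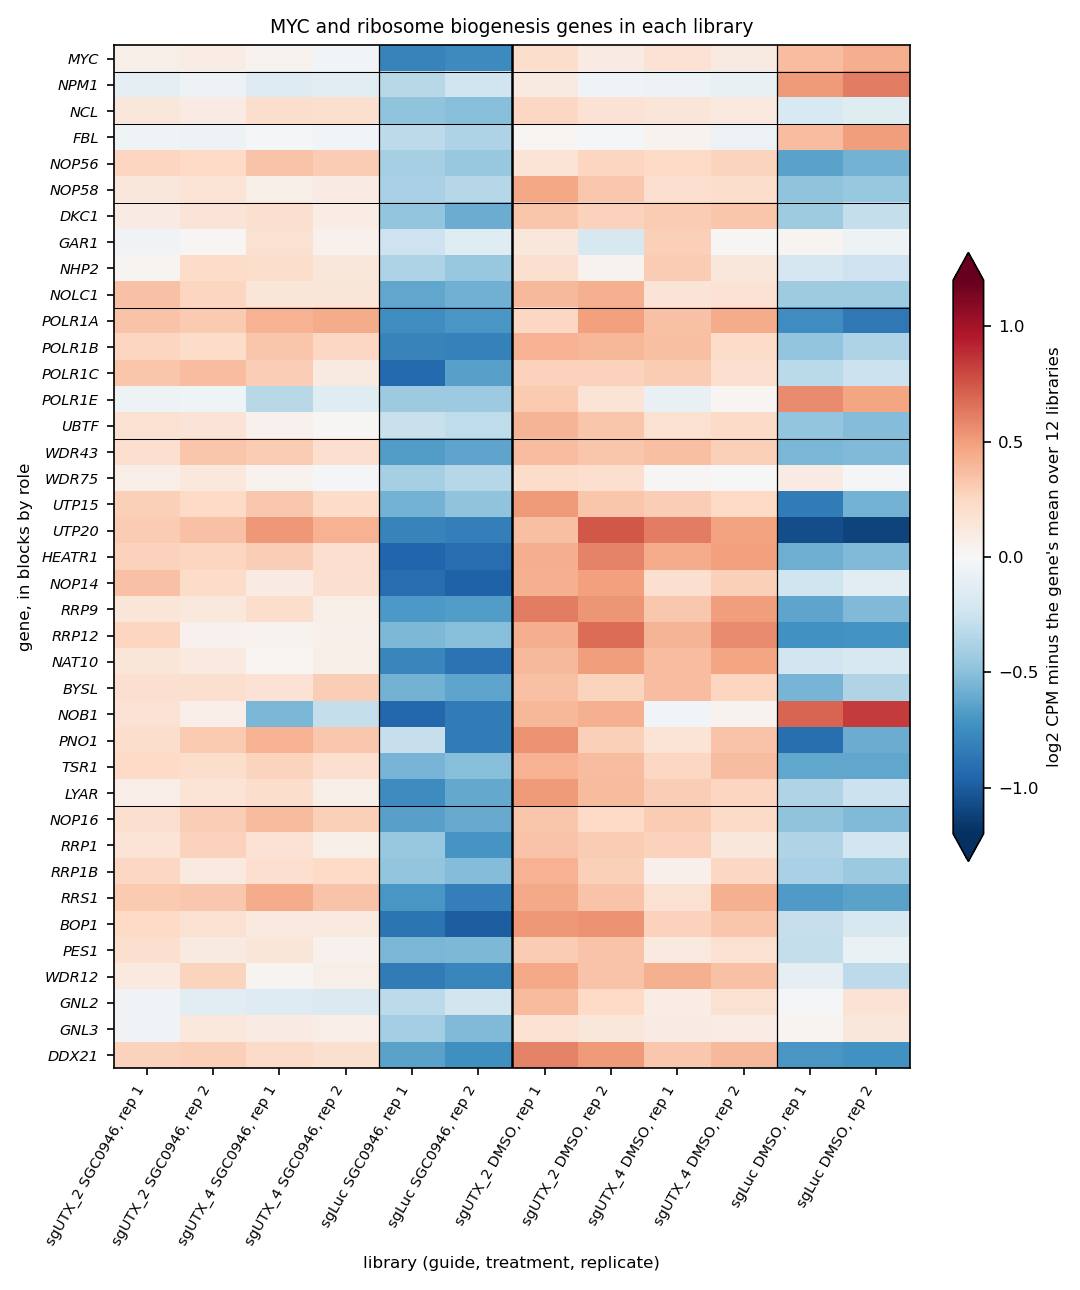
Each row is a gene, in blocks by role from MYC at the top to large subunit assembly at the bottom, and each column a library; colour gives log2 CPM minus the gene's mean over the 12 libraries (NOP2, with 0 to 19 counts in each library, is left out). Most rows are red in the 8 sgUTX libraries and blue in the control libraries, whereas MYC, NPM1, FBL, POLR1E and NOB1 are highest in the control DMSO libraries.

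The first comparison asks how these genes differed in cells with UTX guides when no inhibitor was present. In sgUTX DMSO libraries 30 of the 40 genes (75%) were higher and 5 (12.5%) lower than in control DMSO libraries, where 28.7% of all 15060 genes were called higher and 32.3% lower. Their median log2 fold change was 0.68, against -0.01 for all genes. The genes that rose came from every step of the pathway except MYC itself, and UTP20, RRP12, POLR1A and DDX21 rose more than 2-fold. The 5 that fell were MYC, NPM1, FBL, POLR1E and NOB1, of which only NPM1 and FBL were still called when libraries were scaled by their size alone, a setting that put MYC at 0.02. Of the 13 tested monocyte and macrophage markers 5 (38.5%) were lower and 1 (7.69%) higher in these sgUTX libraries (median log2 fold change -0.63). The guides differed, with 8 lower and 2 higher for sgUTX_2 alone (median -1.69) and 5 lower and 4 higher for sgUTX_4 alone (median 0.09). Their part in these results was not tested. Together the 40 genes took 0.919% to 0.989% of all counts in sgUTX DMSO libraries, against 0.695% and 0.701% in control DMSO libraries. Because these are bulk libraries, a change in the share of some cell type and a change in RNA per cell cannot be told apart.

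MYC was among the most abundant of these transcripts per length, at 220 CPM per kilobase in the sgUTX DMSO arm and 262 in the control DMSO arm. It stood at 687 and 636 CPM with sgUTX_2 and at 670 and 642 CPM with sgUTX_4, against 766 and 804 CPM with sgLuc. No sgUTX library reached the lower sgLuc value. The log2 fold change was -0.25 (SE 0.06, edgeR adjusted p = 0.000667), and it was 0.02 (adjusted p = 0.739) with scaling by library size alone, a setting that moved the median of all genes from -0.01 to 0.26.

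The nucleolar scaffold proteins moved in opposite directions. NPM1, a nucleolar chaperone, had 1930 and 1730 CPM with sgUTX_2 and 1710 and 1680 CPM with sgUTX_4, against 2540 and 2740 CPM with sgLuc (-0.58 on the log2 scale, SE 0.06, adjusted p = 4.15e-08). NCL, which encodes the RNA-binding protein nucleolin, had 1470 and 1400 CPM with sgUTX_2 and 1370 and 1350 CPM with sgUTX_4, against 1090 and 1120 CPM with sgLuc (log2 fold change 0.34, SE 0.06, adjusted p = 3.83e-05). In both genes the sgUTX and control ranges were apart. NPM1 has 45 named pseudogenes, and how reads shared with them were counted is not given in the sources used here.

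Box C/D snoRNPs place methyl groups on ribosomal RNA, and their methyltransferase FBL went the other way from the core proteins NOP56 and NOP58. FBL stood at 289 and 279 CPM with sgUTX_2 and at 293 and 270 CPM with sgUTX_4, against 366 and 403 CPM with sgLuc (log2 fold change -0.44, SE 0.06, adjusted p = 6.66e-07). NOP56 stood at 225 and 239 CPM with sgUTX_2 and at 236 and 241 CPM with sgUTX_4, against 128 and 135 CPM with sgLuc (0.84, SE 0.06, adjusted p = 3.69e-11). NOP58 rose by 0.78 on the log2 scale. NOP56 hosts 5 snoRNA genes and NOP58 hosts 4 on the same strand, and whether their reads entered these counts is not given in the sources used here.

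Box H/ACA snoRNPs convert uridines of ribosomal RNA to pseudouridine. Their synthase DKC1 rose by 0.66, their core protein NHP2 by 0.40 and the snoRNP chaperone NOLC1 by 0.72 on the log2 scale. NOLC1 had 357 and 366 CPM with sgUTX_2 and 304 and 308 CPM with sgUTX_4, against 203 CPM in each sgLuc library. GAR1, another core protein, had 47.6 and 38.0 CPM with sgUTX_2 and 52.9 and 43.8 CPM with sgUTX_4, against 44.3 and 41.6 CPM with sgLuc, so the groups overlapped and it was not called (0.08, SE 0.10, adjusted p = 0.507). NHP2 shares 27.4% of its exonic bases with RMND5B on the opposite strand, and the use of strand in counting is not given in the sources used here.

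Of the RNA polymerase I genes, 4 of 5 rose and 1 fell. POLR1A, the largest catalytic subunit, had 92.8 and 110 CPM with sgUTX_2 and 99.3 and 106 CPM with sgUTX_4, against 46.6 and 43.2 CPM with sgLuc. Every sgUTX library was thus far above both control libraries, a 2.27-fold difference (log2 fold change 1.18, SE 0.08, adjusted p = 6.91e-12). POLR1B, the other catalytic subunit, rose by 0.77, POLR1C, a subunit shared with RNA polymerase III, by 0.56, and UBTF, which binds ribosomal DNA, by 0.79 on the log2 scale. POLR1E, a polymerase-associated subunit, had 71.1 and 63.9 CPM with sgUTX_2 and 53.7 and 58.0 CPM with sgUTX_4, against 84.4 and 79.1 CPM with sgLuc. Its log2 fold change of -0.41 (SE 0.09, adjusted p = 0.00073) became -0.13 (adjusted p = 0.218) with scaling by library size alone.

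In small subunit assembly 12 of 14 genes were higher and 1, NOB1, was lower, with a median log2 fold change of 0.93. UTP20, a large scaffold of the early small subunit particle, had 38.8 and 50.6 CPM with sgUTX_2 and 46.2 and 42.4 CPM with sgUTX_4, against 14.5 and 14.0 CPM with sgLuc. It was 3.12-fold higher (log2 fold change 1.64, SE 0.11, adjusted p = 1.36e-11), with a wide gap between the ranges. RRP12, an export factor, had 138 and 163 CPM with sgUTX_2 and 136 and 152 CPM with sgUTX_4, against 61.7 and 62.2 CPM with sgLuc (1.25, SE 0.08, adjusted p = 8.02e-12).

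Of the subcomplex that links RNA polymerase I to early processing, HEATR1 rose by 1.05, UTP15 by 1.05 and WDR43 by 0.88 on the log2 scale, while WDR75 was not called (0.07, adjusted p = 0.462). PNO1, a late assembly factor, rose by 1.09, RRP9, a snoRNP protein, by 1.08, and TSR1, a late factor related to GTPases, by 0.98. BYSL, another late factor, rose by 0.77, the zinc finger protein LYAR by 0.68, the RNA acetyltransferase NAT10 by 0.64 and NOP14, a core factor of the early particle, by 0.55.

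NOB1, the endonuclease that makes the final cut in small subunit RNA and works with PNO1, went the other way. It had 103 and 105 CPM with sgUTX_2 and 76.6 and 80.4 CPM with sgUTX_4, against 127 and 140 CPM with sgLuc. The 3 guides did not overlap, and the log2 fold change of -0.55 (SE 0.21) was just past the threshold (adjusted p = 0.0464). The call was lost in 8 of the 12 fits that left out 1 library, and NOB1 shares 20.2% of its exonic bases with a gene on the opposite strand. Taken guide by guide, NOB1 was called lower with sgUTX_2 (-0.36, adjusted p = 8.04e-05) and with sgUTX_4 (-0.76, adjusted p = 9.35e-11).

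Of the 11 large subunit assembly genes, 8 rose and none fell. DDX21, an RNA helicase, had 731 and 687 CPM with sgUTX_2 and 605 and 630 CPM with sgUTX_4, against 298 and 291 CPM with sgLuc. The ranges lay far apart (2.25-fold, log2 fold change 1.17, SE 0.07, adjusted p = 4e-12). RRS1 rose by 1.02 and NOP16 by 0.78 on the log2 scale, and RRP1B and RRP1 by 0.68 and 0.56. BOP1, PES1 and WDR12, which form one complex, rose by 0.66, 0.42 and 0.60.

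The GTPases GNL3 and GNL2 were not called. GNL3 had 177 and 171 CPM with sgUTX_2 and 167 and 165 CPM with sgUTX_4, against 159 and 171 CPM with sgLuc (0.04, SE 0.06, adjusted p = 0.583). GNL2 was at 0.15 (adjusted p = 0.0984). NOP2, an RNA methyltransferase, had 0 to 19 counts in each library and was not called (1.5, adjusted p = 0.0921). It shares 54.4% of its exonic bases with AC006064.6 on the same strand, so its level is uncertain.

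**Figure D2:**
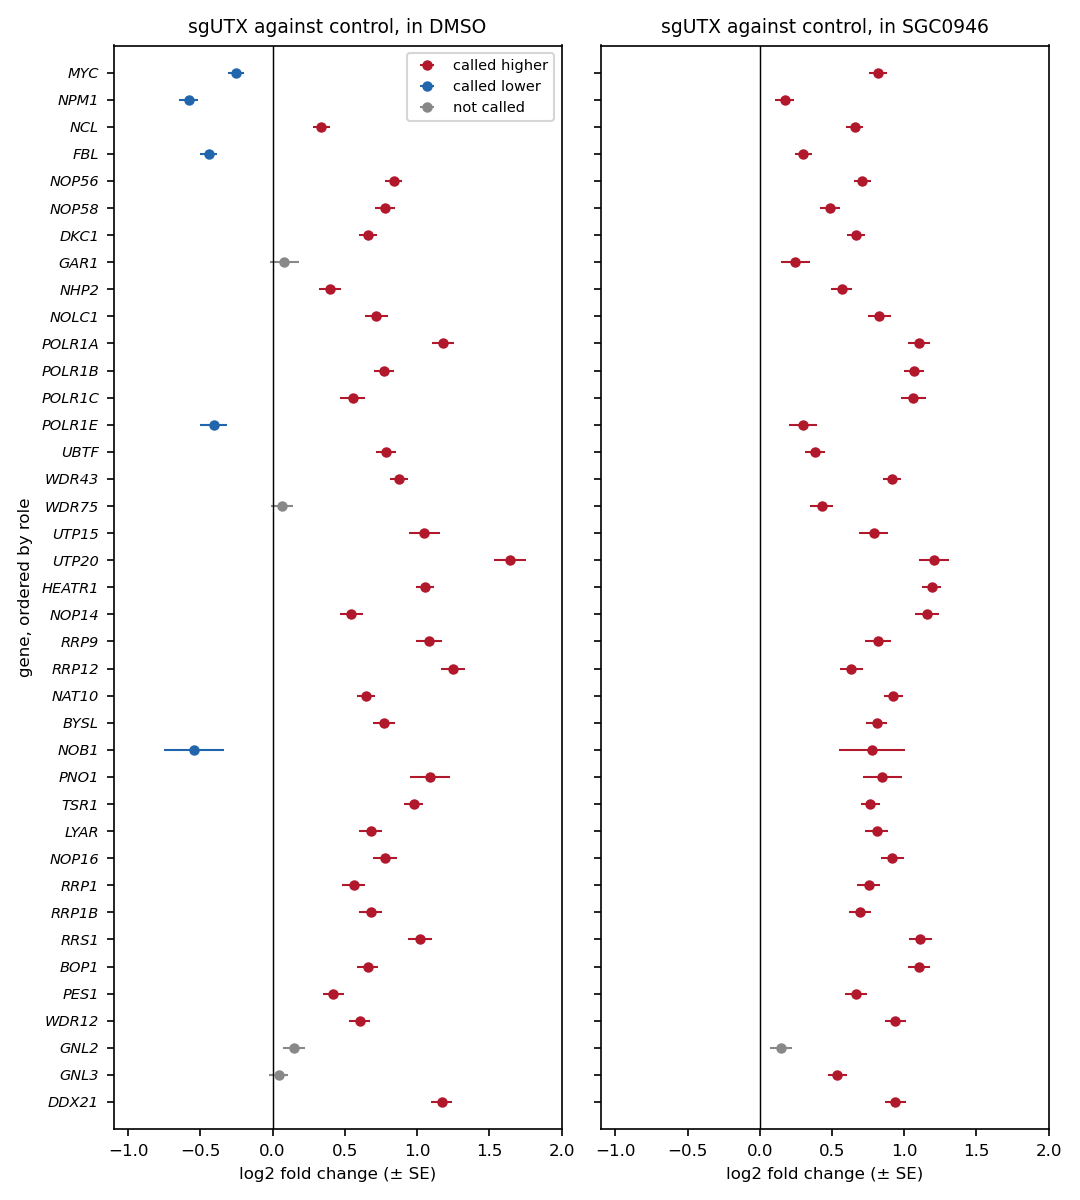
Log2 fold changes (x axis, ± SE) of sgUTX against control libraries in DMSO (left) and in SGC0946 (right), 4 against 2 libraries each, with genes ordered by role and coloured by their call (NOP2 is left out). MYC, NPM1, FBL, POLR1E and NOB1 lie left of 0 in DMSO and right of it in SGC0946 (MYC moves to 0.02 in DMSO with scaling by library size alone). In contrast, 30 genes are called higher in both, where at most 27.7% of all genes can be.

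The second comparison asks what 6 days of SGC0946 did in cells with the control guide. In control cells MYC, NPM1, FBL, POLR1E and NOB1 fell the most, and many genes that stood highest in sgUTX cells, UTP20 and DDX21 among them, were not called. In all 20 of the 40 genes (50%) were lower and 2 (5%) higher in SGC0946 than in DMSO, where 24.2% of all genes were called lower and 24.7% higher. Their median log2 fold change was -0.18, against 0.00 for all genes. This comparison and the first one share the control DMSO libraries. All 13 tested monocyte and macrophage markers were higher in the same SGC0946 libraries, with a median log2 fold change of 3.74, and their part in these results was not tested.

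MYC stood at 342 and 351 CPM in SGC0946, against 766 and 804 CPM in DMSO. It was 2.27-fold lower (log2 fold change -1.18, SE 0.07, edgeR adjusted p = 3.39e-12), and leaving out any 1 library kept the value between -1.21 and -1.15. NPM1 had 1420 and 1510 CPM in SGC0946, against 2540 and 2740 CPM in DMSO (-0.85, SE 0.08, adjusted p = 3.45e-09). NCL fell less, with 887 and 873 CPM in SGC0946, against 1090 and 1120 CPM in DMSO (-0.33, SE 0.08, adjusted p = 0.000393).

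Among the snoRNP genes FBL fell and most others were not called. FBL had 229 and 219 CPM in SGC0946, against 366 and 403 CPM in DMSO (-0.78, SE 0.07, adjusted p = 2.98e-09). NOP56 had 152 and 146 CPM in SGC0946, against 128 and 135 CPM in DMSO, and was called higher (0.18, SE 0.07, adjusted p = 0.0295). DKC1 was lower by a small step (-0.18, adjusted p = 0.0383). NHP2 and NOLC1, with -0.19 and -0.17, and GAR1, with -0.18, were not called, nor was NOP58 at 0.10.

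In RNA polymerase I, 3 genes fell and UBTF rose. POLR1E had 42.1 CPM in each SGC0946 library, against 84.4 and 79.1 CPM in DMSO. This was a 1.94-fold fall (-0.96, SE 0.11, adjusted p = 4.41e-07). POLR1C fell by 0.49 and POLR1B by 0.38 on the log2 scale. UBTF had 148 and 144 CPM in SGC0946, against 128 and 124 CPM in DMSO (0.21, SE 0.08, adjusted p = 0.0288), and POLR1A was not called (0.07, adjusted p = 0.522). The calls of UBTF and NOP56, the only members called higher, were lost without 1 or another of the control libraries, and 0 were called higher without sgLuc DMSO replicate 2 or without sgLuc SGC0946 replicate 1.

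Small subunit assembly split, with 6 of 14 genes lower and none higher (2 higher with scaling by library size alone). NOB1 had 40.8 and 43.6 CPM in SGC0946, against 127 and 140 CPM in DMSO. Its fall was 3.16-fold, the largest among the 40 genes (-1.66, SE 0.26, adjusted p = 0.000596). NOP14 fell by 0.75, NAT10 by 0.63, WDR75 by 0.42, HEATR1 by 0.37 and LYAR by 0.37 on the log2 scale. UTP20 had 17.4 and 17.2 CPM in SGC0946, against 14.5 and 14.0 CPM in DMSO, and was not called (0.28, SE 0.13, adjusted p = 0.0797).

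Large subunit assembly had 6 of 11 genes lower. BOP1 had 104 and 96.4 CPM in SGC0946, against 158 and 167 CPM in DMSO (-0.70, SE 0.08, adjusted p = 4.61e-07). Its partners fell as well, WDR12 by 0.61 and PES1 by 0.36 on the log2 scale. GNL3 fell by 0.55, GNL2 by 0.35 and RRP1 by 0.29. DDX21 had 309 and 289 CPM in SGC0946, against 298 and 291 CPM in DMSO, and was not called (0.02, SE 0.08, adjusted p = 0.849). NOP2 was not called, with 9 counts in each SGC0946 library against 6 and 0 in DMSO.

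**Figure D3:**
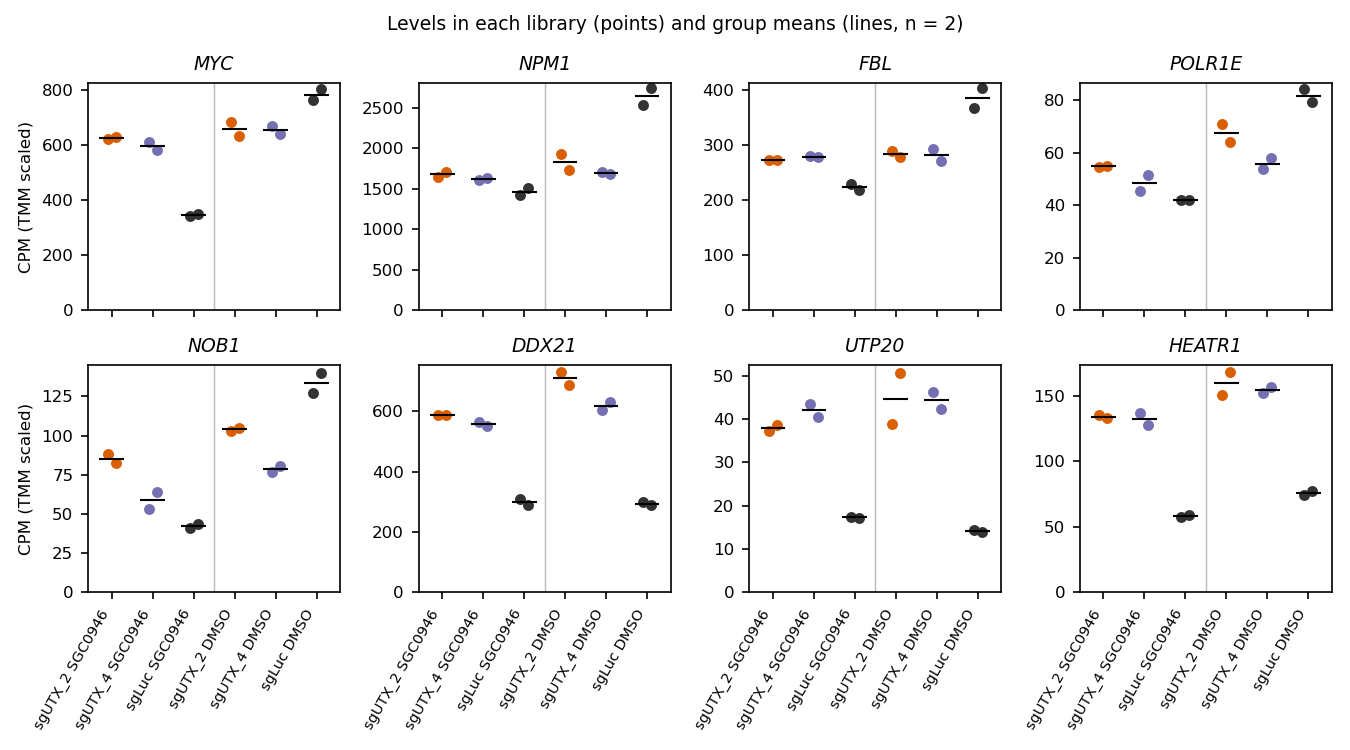
CPM of 8 genes in each library (points) with the mean of each group of 2 libraries (lines), SGC0946 groups left of the grey line and DMSO groups right of it. MYC, NPM1, FBL, POLR1E and NOB1 are highest in sgLuc DMSO libraries and lowest in sgLuc SGC0946 libraries, whereas DDX21, UTP20 and HEATR1 are lower in all sgLuc than in all sgUTX libraries.

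The third comparison asks what the inhibitor did in cells with UTX guides. In sgUTX cells 13 of the 40 genes (32.5%) were lower and none was higher in SGC0946 than in DMSO, where 16.4% of all genes were called lower and 17.4% higher. All 13 falls were small, and the 40 log2 fold changes lay between -0.42 and 0.05 with a median of -0.10, against 0.00 for all genes. Among the 13 called, RRP12, NAT10, RRP9 and GNL2 fell the most, while MYC, NPM1, FBL and NOB1 were not called. NOB1 had 88.1 and 82.5 CPM with sgUTX_2 in SGC0946, against 103 and 105 CPM in DMSO. With sgUTX_4 it had 53.5 and 64.2 CPM in SGC0946, against 76.6 and 80.4 CPM in DMSO. Its values overlapped across guides, but each guide's SGC0946 libraries lay below its DMSO libraries. Of the 13 monocyte and macrophage markers 8 were higher in SGC0946 here, and their part in these results was not tested.

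MYC had 622 and 632 CPM with sgUTX_2 and 611 and 582 CPM with sgUTX_4 in SGC0946, against 687 and 636 CPM with sgUTX_2 and 670 and 642 CPM with sgUTX_4 in DMSO. All 4 SGC0946 values were below all 4 DMSO values, but the log2 fold change of -0.11 (SE 0.05) missed the threshold in edgeR (adjusted p = 0.0911) and passed it in DESeq2 (adjusted p = 0.0387). RRP12 had 122 and 106 CPM with sgUTX_2 and 105 and 107 CPM with sgUTX_4 in SGC0946, against 138 and 163 CPM with sgUTX_2 and 136 and 152 CPM with sgUTX_4 in DMSO (-0.42, SE 0.06, adjusted p = 9.95e-06). GNL2 had 81.5 and 77.2 CPM with sgUTX_2 and 75.6 and 74.5 CPM with sgUTX_4 in SGC0946, against 109 and 99.2 CPM with sgUTX_2 and 89.4 and 95.3 CPM with sgUTX_4 in DMSO (-0.35, SE 0.06, adjusted p = 1e-04).

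The ranges of RRP12 and GNL2 did not overlap between the treatments. POLR1E had 54.6 and 55.1 CPM with sgUTX_2 and 45.4 and 51.5 CPM with sgUTX_4 in SGC0946, against 71.1 and 63.9 CPM with sgUTX_2 and 53.7 and 58.0 CPM with sgUTX_4 in DMSO. Its values overlapped across guides, but each guide's SGC0946 libraries lay below its DMSO libraries (-0.26, SE 0.08, adjusted p = 0.0135). The other falls were RRP9 at -0.36, NAT10 at -0.34, WDR12 at -0.27, BOP1 at -0.25, HEATR1 and LYAR at -0.24 each, DDX21 at -0.21, UBTF and NOP58 at -0.19 each and DKC1 at -0.17. NCL, NOP56, GAR1, POLR1C, PNO1 and NOP16 had values between -0.03 and 0.05 and were not called.

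Whether the responses differed between the genotypes was tested directly, as the response in sgUTX cells minus that in control cells. MYC, NPM1, FBL, POLR1E and NOB1 fell less in sgUTX cells, and UBTF and RRP12 fell in sgUTX cells where they had values above 0 in control cells. In all 14 of the 40 genes (35%) had a positive and 4 (10%) a negative difference, where 18.3% and 16.5% of all genes did, and the median was 0.13, against 0.02 for all genes. The share with a positive difference was above that of all genes, and in this fit the share with a negative one was below it. With scaling by library size alone 8 of the 40 were negative, where 3109 of all 15060 genes were, so the negative share was then near that of all genes.

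The difference for MYC was 1.07 on the log2 scale (SE 0.08, edgeR adjusted p = 2.17e-09), and leaving out any 1 library kept it between 1.04 and 1.11. Other genes with a difference of at least 0.70 were NOB1 (1.32, SE 0.31, adjusted p = 0.00952), NPM1 (0.76, SE 0.09, adjusted p = 1.26e-06), FBL (0.74, SE 0.08, adjusted p = 4.16e-07) and POLR1E (0.70, SE 0.14, adjusted p = 0.000379). NOP14, POLR1C, GNL3 and BOP1 had differences of 0.62, 0.51, 0.49 and 0.44, and WDR75, WDR12, NCL, POLR1B and NAT10 of 0.36, 0.34, 0.32, 0.30 and 0.28. The negative ones were RRP12 at -0.61 (SE 0.11, adjusted p = 0.000132), UTP20 at -0.43, UBTF at -0.40 and NOP58 at -0.29. The count of negative differences was 2 without sgLuc DMSO replicate 2 and 7 without sgUTX_4 DMSO replicate 1.

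**Figure D4:**
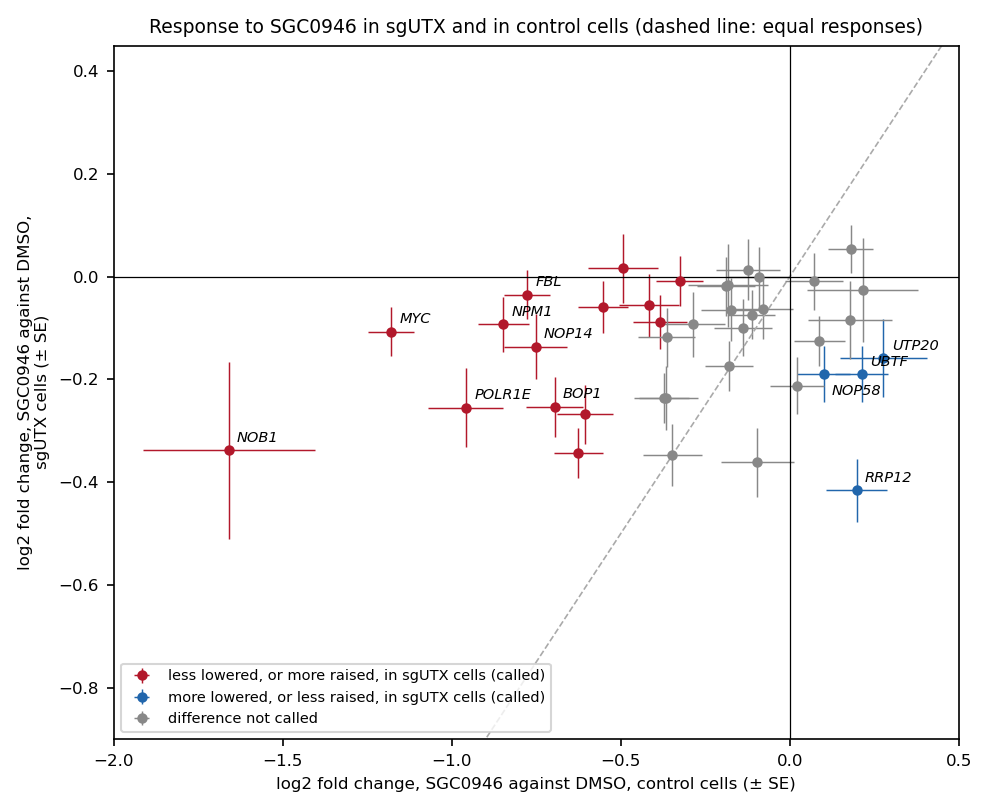
Each point is a gene, with the log2 fold change of SGC0946 against DMSO in control cells on the x axis and in sgUTX cells on the y axis (± SE), coloured by the test of the difference of the 2 responses (NOP2 is left out). MYC, at -1.18 in control and -0.11 in sgUTX cells, NPM1, FBL, POLR1E and NOB1 lie far above the dashed line of equal responses, and RRP12, at 0.20 and -0.42, lies below it.

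The fourth comparison sets the genotypes against each other with the inhibitor present. In sgUTX SGC0946 libraries 38 of the 40 genes (95%) were higher than in control SGC0946 libraries and none was lower, where 27.7% of all genes were called higher and 29.3% lower. The median log2 fold change was 0.78, against 0.01 for all genes. This comparison shares no library with that of the genotypes in DMSO, but both used the same guides, the same fit and its estimate of spread. Called higher in both were 30 of the 40 genes. The share of all genes called higher in both was not counted and cannot exceed the 27.7% called higher here. GAR1, WDR75 and GNL3 were called higher with the inhibitor and not called in DMSO, and NOP2 and GNL2 were called in neither. The 40 genes took 0.873% to 0.904% of counts in sgUTX SGC0946 libraries, against 0.515% and 0.511% in control SGC0946 libraries. All 13 monocyte and macrophage markers were lower in the same sgUTX libraries, and their part in these results was not tested.

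MYC had 622, 632, 611 and 582 CPM in the 4 sgUTX libraries, against 342 and 351 CPM in the control libraries, a 1.77-fold difference with no overlap (log2 fold change 0.82, SE 0.06, edgeR adjusted p = 9.87e-11). NOB1 had 88.1 and 82.5 CPM with sgUTX_2 and 53.5 and 64.2 CPM with sgUTX_4, against 40.8 and 43.6 CPM with sgLuc (0.78, SE 0.23, adjusted p = 0.0167). NPM1 had 1650, 1710, 1610 and 1640 CPM in sgUTX libraries, against 1420 and 1510 CPM in control libraries (0.17, SE 0.07, adjusted p = 0.0273). The call of NPM1 was lost with another scaling (RLE, adjusted p = 0.0653) and in 3 of the 12 fits without 1 library, and that of GAR1 (0.25, adjusted p = 0.0433) in 9 of them.

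FBL averaged 276 ± 3.85 CPM in sgUTX and 224 ± 7.41 CPM in control libraries (mean ± SD, n = 4 and 2; log2 fold change 0.30, adjusted p = 0.000162). NOP56 averaged 244 ± 7.37 and NCL 1390 ± 52.7 CPM in sgUTX libraries, against 149 ± 4.13 and 880 ± 10.1 CPM in control libraries. Both rose, NOP56 by 0.71 and NCL by 0.66 on the log2 scale. NOLC1 rose by 0.83, DKC1 by 0.67, NHP2 by 0.57 and NOP58 by 0.49.

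All 5 RNA polymerase I genes rose. POLR1A averaged 101 ± 4.14 CPM in sgUTX and 47.2 ± 1.05 CPM in control libraries (1.10, SE 0.07, adjusted p = 1.71e-11). POLR1B and POLR1C rose by 1.07 and 1.06 on the log2 scale, UBTF by 0.38 and POLR1E by 0.30. POLR1E had 54.6, 55.1, 45.4 and 51.5 CPM in sgUTX libraries, against 42.1 CPM in each control library, so that its ranges were apart by a small step.

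All 14 small subunit genes rose. UTP20 had 37.3 and 38.6 CPM with sgUTX_2 and 43.5 and 40.5 CPM with sgUTX_4, against 17.4 and 17.2 CPM with sgLuc (1.21, SE 0.10, adjusted p = 1.17e-09). HEATR1 averaged 133 ± 3.75 CPM in sgUTX and 58.4 ± 1.11 CPM in control libraries (1.19, adjusted p = 3.44e-13). NOP14, NAT10, WDR43, PNO1, RRP9, BYSL, LYAR, UTP15, TSR1 and RRP12 rose by 0.64 to 1.16 on the log2 scale, and WDR75 rose the least, by 0.43.

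Of the large subunit genes 9 of 11 rose. RRS1 had 75.0 and 75.4 CPM with sgUTX_2 and 81.8 and 76.3 CPM with sgUTX_4, against 37.2 and 34.2 CPM with sgLuc (1.11, SE 0.08, adjusted p = 5.32e-11). BOP1 averaged 215 ± 8.59 CPM in sgUTX and 100 ± 5.53 CPM in control libraries (1.10, adjusted p = 2.81e-11). DDX21 and WDR12 each rose by 0.94, NOP16 by 0.92, RRP1 by 0.75, RRP1B by 0.70, PES1 by 0.67 and GNL3 by 0.54. GNL2 (0.15, adjusted p = 0.105) and NOP2 (-0.11, adjusted p = 0.89) were not called.

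The guides were also compared with each other, in a fit that gave each of the 6 groups its own mean. In DMSO 4 of the 40 genes were lower with sgUTX_4 than with sgUTX_2 and none was higher, where 1.77% of all genes were called lower and 1.72% higher. These were NOB1 (-0.41, SE 0.07, edgeR adjusted p = 0.00104), POLR1E (-0.27, adjusted p = 0.0398), NOLC1 (-0.24, adjusted p = 0.0115) and BOP1 (-0.23, adjusted p = 0.0251). Without sgUTX_4 DMSO replicate 1 the count was 1. In SGC0946 NOB1 alone was lower (-0.53, SE 0.08, adjusted p = 2.92e-05), where 1.40% of all genes were called lower and 1.61% higher. Against the control in DMSO, 32 genes were higher and 5 lower with sgUTX_2, where 28.2% and 32.2% of all genes were, and 31 were higher and 5 lower with sgUTX_4, where 28.5% and 31.2% were. Against the control in SGC0946, 38 genes were higher with each guide, where 27.3% of all genes were. These per-guide comparisons share the control libraries. Of the 13 monocyte and macrophage markers 4 were higher and none lower with sgUTX_4 than with sgUTX_2 in DMSO (median log2 difference 0.68), and likewise 4 in SGC0946 (median 0.62), and their part in the differences between guides was not tested.

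Other genes of the same machinery were counted from lists that hold none of the 40. In DMSO 33 of 42 other small subunit assembly genes (78.6%) and 36 of 45 other large subunit assembly genes (80%) were higher in sgUTX than in control libraries. Lower were 0 and 4 (8.89%), where 28.7% of all genes were called higher and 32.3% lower. Examples were URB2 at 1.55 (SE 0.09, adjusted p = 8.24e-13) and PPAN at 1.29 for the large subunit, and LTV1 at 1.12 and RRP36 at 1.11 for the small one. PWP2, at 1.71, stayed between 0.111 and 0.701 CPM in the 12 libraries. NOP53, RSL1D1 and NSA2 were lower, at -0.93, -0.82 and -0.53. Of 15 other RNA polymerase I genes 7 (46.7%) were higher, led by the promoter factor subunit TAF1A at 1.27. The 3 that were lower (20%), with POLR1D, a subunit shared with RNA polymerase III, at -0.73, were a smaller share than among all genes.

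Ribosomal protein genes went the opposite way to the assembly factors in this comparison, with 76 of 85 lower and 3 higher in sgUTX DMSO libraries and a median log2 fold change of -0.90. Of all genes 32.3% were lower and 28.7% higher. In SGC0946 68 were lower and 5 higher in sgUTX libraries, with a median of -0.33, where 29.3% and 27.7% of all genes were. Scaling by library size alone gave 41 lower and 7 higher, where 3226 and 5992 of all 15060 genes were. Leaving the ribosomal protein genes out of the scaling changed no call of the 40 genes. The inhibitor lowered 72 of the 85 in control cells and none in sgUTX cells, where 3 were higher. Of all genes it lowered 24.2% in control cells, and in sgUTX cells 16.4% were lower and 17.4% higher.

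With the inhibitor, 35 of the 42 small subunit, 37 of the 45 large subunit and 8 of the 15 RNA polymerase I genes outside the 40 were higher in sgUTX than in control libraries and none was lower. These were 83.3%, 82.2% and 53.3% of their lists, against 27.7% of all genes. Examples were PPAN at 1.58, NOL6 at 1.22 and TAF1C at 0.75. SGC0946 against DMSO lowered 19, 22 and 6 of these genes in sgUTX cells, with UTP4 at -0.47, RSL24D1 at -0.40 and TAF1A at -0.46. That was 45.2%, 48.9% and 40% of the lists, against 16.4% of all genes. In control cells it lowered 21, 23 and 4, with DDX10 at -0.96, RSL1D1 at -0.88 and POLR1D at -0.84. The 21 and 23 were 50% and 51.1% of their lists, whereas the 4 RNA polymerase I genes were 26.7% of theirs, near the 24.2% of all genes called lower. With scaling by library size alone these last counts were 12, 19 and 3, and the RNA polymerase I genes then had 4 higher.

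Of 20 growth and metabolism genes known as MYC targets, 14 (70%) were higher and 2 (10%) lower in sgUTX DMSO libraries. Of all genes 28.7% and 32.3% were, and MYC itself was not higher there. The nucleoside diphosphate kinase gene NME1 stood at 1.2, RANBP1, a regulator of nuclear transport, at 1.03, and IMPDH2, an enzyme of guanine nucleotide synthesis, at -0.98. With the inhibitor sgUTX libraries had 18 of the 20 (90%) higher and 1 (5%) lower than control libraries, against 27.7% and 29.3% of all genes. The largest rise was that of the telomerase gene TERT, at 1.39 (SE 0.20, edgeR adjusted p = 3.7e-06). TERT had 14.3 and 12.6 CPM with sgUTX_2 and 10.6 and 10.2 CPM with sgUTX_4, against 3.86 and 5.21 CPM with sgLuc, with no overlap. SGC0946 against DMSO lowered 7 (35%) and raised 1 (5%) in sgUTX cells, against 16.4% and 17.4% of all genes, with CDK4, a cell cycle kinase, at -0.43. In control cells it lowered 11 (55%) and raised 3 (15%), against 24.2% and 24.7% of all genes. TERT was at -1.64 there and the serine metabolism gene SHMT2 at -1.36. The largest rise was that of TFRC, with 744 and 713 CPM in SGC0946, against 118 and 110 CPM in DMSO.

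Of 12 tested partners and antagonists of MYC, 5 (41.7%) were lower and 2 (16.7%) higher in sgUTX DMSO libraries, against 32.3% and 28.7% of all genes. This balance turned to 3 lower and 5 higher with scaling by library size alone. MXI1, a repressor that competes for MAX, had 50.3 and 45 CPM with sgUTX_2 and 46.9 and 48.1 CPM with sgUTX_4, against 140 and 150 CPM with sgLuc (-1.61, SE 0.06, adjusted p = 1.9e-15). The sgUTX values were close to each other and far below the control values. MXD4 and MXD1, repressors of the same family, were at -0.69 and -0.64, and MGA, another MAX partner, at 0.87. With the inhibitor sgUTX libraries had 6 of the 12 lower and 4 higher than control libraries, against 29.3% and 27.7% of all genes, or 4 lower and 6 higher with that scaling.

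MXD1 had 17.5 and 15.9 CPM with sgUTX_2 and 19.4 and 20 CPM with sgUTX_4 in SGC0946, against 55.7 and 59.2 CPM with sgLuc in SGC0946 (-1.66, SE 0.10, adjusted p = 1.73e-12). Control cells in DMSO had 20.5 and 22.9 CPM, so the inhibitor raised MXD1 in control cells (1.41, SE 0.12, adjusted p = 2.09e-09). The MYC paralog MYCL rose there too (1.03, SE 0.14, adjusted p = 1.71e-06), to 25.9 and 24.8 CPM in SGC0946, against 12.7 and 12.2 CPM in DMSO. In sgUTX cells MXD1 rose by 0.39 and MYCL fell by 0.39 on the log2 scale.

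**Figure D5:**
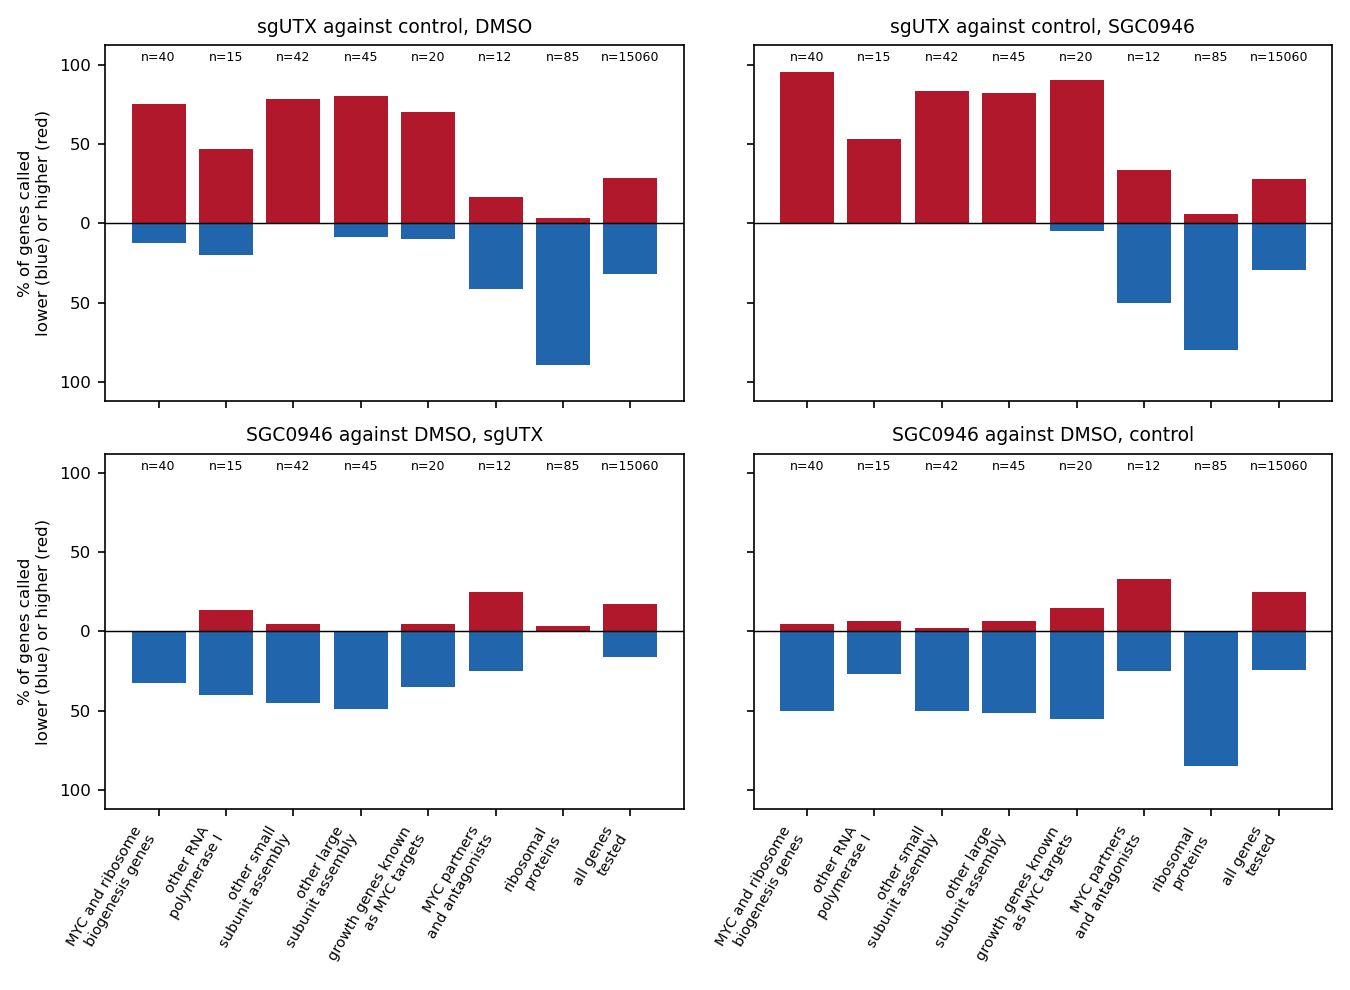
Share of genes called higher (red, above 0) and lower (blue, below 0) in each list and in all 15060 genes tested, one panel per comparison, with the number of tested genes above each pair of bars. In both genotype comparisons (top) the 40 genes and the other assembly lists stand above all genes on the red side and the ribosomal protein genes on the blue side, and in control cells with SGC0946 (bottom right) 50% of the 40 genes and 84.7% of the ribosomal protein genes are lower.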

How the data were processed

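The authors deposited raw read counts per gene, 1 column for each of the 12 libraries and not normalized. Total RNA was sequenced as paired reads of 150 bases, per the labels' protocols. The submitters' processing notes name STAR 2.5.1b and hg19. Since all 58735 identifiers are those of GENCODE 29, which annotates GRCh38, it is uncertain on which build the counts were made. How reads were counted, with or without strand, is not given in the sources used here.

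Groups follow each sample's labels. The two-sided quasi-likelihood test of edgeR 4.0.16 (R 4.3.3) was run with robust fits after filterByExpr and TMM scaling, and p-values were adjusted by Benjamini-Hochberg over all 15060 genes, with calls at an adjusted p under 0.05. Fits held 4 arms (8 residual degrees of freedom, biological coefficient of variation 0.0775) or, for the guides, 6 groups (6 residual degrees of freedom, 0.057). The alternatives included DESeq2 1.42.0. The fits were also run on simulated counts with independent libraries, the same spread for every gene and few changed genes. That run checked the code and cannot show how the fits behave with these libraries. In none of the 6 groups were the 2 libraries alike within sampling noise on average. The mean chi-square per gene between them was 2.85 to 6.29, over genes with at least 20 counts. Single genes and libraries of different groups were not compared in this way. Gene positions are from GENCODE 29 and promoter sequences from RefSeq (GRCh38.p14), where each 300-base window begins 250 bases before the annotated start.

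The 40 genes, the other lists and the tests were chosen with earlier results of these data known. Values in every library were given for MYC and for the members of each role with the largest and the smallest change, plus a few chosen after their values were seen, and at most 3 genes in each direction of any other list were named. No list as a whole was tested. The 15 monocyte and macrophage markers were read as summed CPM and, for the 13 that passed the filter, as calls and medians.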

Additional observations from a re-analysis of the deposited data

Results flagged for a closer look

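In 18 of the 40 genes the response to SGC0946 differed between sgUTX and control cells by the test of the difference itself (edgeR, response in sgUTX cells minus response in control cells, log2 scale, 4 and 2 libraries per treatment). Of these, 14 (35%) were positive and 4 (10%) negative, where 18.3% and 16.5% of all 15060 genes were. The positive ones were NOB1 (1.32), MYC (1.07), NPM1 (0.76), FBL (0.74), POLR1E (0.70), NOP14 (0.62), POLR1C (0.51), GNL3 (0.49), BOP1 (0.44), WDR75 (0.36), WDR12 (0.34), NCL (0.32), POLR1B (0.30) and NAT10 (0.28). The negative ones were RRP12 (-0.61), UTP20 (-0.43), UBTF (-0.40) and NOP58 (-0.29).

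RRP12 in sgUTX_2 SGC0946 replicate 1, at 122 CPM, lay apart from the other 3 sgUTX SGC0946 libraries, its gap to the nearest being 0.878 of their range. This was 1 of 80 groups of 4 libraries checked, and chance alone sets about 1 in 20 apart.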

How the results depend on the processing

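With scaling by library size alone, the median log2 fold change of all genes was 0.26 instead of -0.01 for the genotypes in DMSO, and MYC was at 0.022 (adjusted p = 0.739), the only called value of a member that changed sign. List medians that changed sign were those of the nucleolar scaffold pair (0.15 instead of -0.12) and the MYC partners (0.18 instead of -0.09) in DMSO, the MYC partners in SGC0946 (0.13 instead of -0.05), other RNA polymerase I genes for SGC0946 in control cells (0.05 instead of -0.04), and, for the difference of responses, small subunit assembly (-0.05 instead of 0.04) and other large subunit genes (-0.001 instead of 0.088). The share of calls that were higher became 66.7% instead of 47.1% in that comparison (65.0% instead of 48.6% in SGC0946), 60.9% instead of 50.6% for SGC0946 in control cells and 40.6% instead of 52.6% for the difference of responses. Members lower in sgUTX DMSO libraries numbered 2 instead of 5, members higher with SGC0946 in control cells 5 instead of 2, and negative differences 8 instead of 4. With no filter on low counts 4 members were higher with SGC0946 in control cells. Leaving out 1 library at a time, these were 0 to 2, negative differences 2 to 7, and members lower with sgUTX_4 than with sgUTX_2 in DMSO 1 to 5. The other counts of members, under RLE scaling, TMM without ribosomal protein genes, DESeq2, 6 groups with averaged guides and single guides, stayed within 1.5 times of the values given. Replicate numbers did not pair the libraries, with correlations of deviations between -0.111 and 0.0731 over 15 pairs of groups. A replicate block gave 30 members higher and 4 lower in sgUTX DMSO libraries and lost the calls of NOB1 there (adjusted p = 0.0605) and of POLR1E between the guides in DMSO (adjusted p = 0.053). With 2 libraries per group, small changes can be missed, and NOP2, at 0 to 19 counts, is below the depth that gives a usable value.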
